A study of Mus musculus with 11 samples.

Results

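The solute carriers are the largest superfamily of membrane transporters. Their gene symbols start with Slc, followed by the number of the family and of the member. They were followed here among the RNAs held by FMRP, whose loss causes Fragile X syndrome, in 3 brain regions of young mice. The members were selected on their symbol and on a sum of at least 20 counts over all 11 libraries, with the glial glutamate transporters Slc1a2 and Slc1a3 set aside. This gave 135 genes of the 30986 rows in the table, out of 345 rows whose symbol has the solute carrier pattern. A further 208 such rows had fewer than 20 counts. One member, Slc4a1ap, carries a suffix in its symbol and is not a transporter.

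Most solute carriers move their substrate without burning ATP. They are driven by the gradients of sodium, protons or chloride that pumps maintain, or they exchange one substrate for another. In the brain they clear transmitters from the synaptic cleft, load them into vesicles, set the chloride and pH of neurons, extrude calcium, supply glucose and lactate, and carry metabolites into mitochondria. FMRP is known to bind the messenger RNAs of many neuronal genes and to restrain their translation.

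The tissues were cerebellum, cortex and hippocampus of mice at postnatal day 13. All tissue was frozen, powdered and exposed 3 times to 400 mJ of ultraviolet at 254 nm, which fixes proteins to the RNA they touch. FMRP was then immunoprecipitated, and the RNA released from it was ligated to adapters with a kit meant for small RNA. Genotype, strain, sex and treatment are not given in the labels, and no sample is labelled as lacking FMRP or as precipitated without the antibody. Cerebellum had 2 samples, cortex 3 and hippocampus 4, where 2 hippocampus libraries that agree within sampling noise (chi-square divided by its degrees of freedom 1.03, p = 0.191, from 1873 rows) were summed as hippocampus 1+2 and counted once. Cortex and hippocampus together are called forebrain (n = 7). One more library has a title naming cortex and a tissue label naming hippocampus, and it was put in no group.

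Sample totals ran from 11898 counts (cortex 3) to 197382 (cerebellum 2). Levels are in CPM, counts divided by the library total and multiplied by 1000000. A single fragment was worth 84.0 CPM in cortex 3 and 5.07 CPM in cerebellum 2, and a count of 0 allowed 3 counts at most, or 15.2 CPM in cerebellum 2 and 252.1 CPM in cortex 3. These limits cover counting error only. The region labels were checked against cell type markers. The summed level of 14 markers of cerebellar granule cells was 7290 to 8968 CPM in cerebellum and 326 to 929 CPM in forebrain, that of 9 Purkinje cell markers 3562 to 3709 against 648 to 1237 CPM, and that of 12 markers of telencephalic excitatory neurons 660 to 861 against 1765 to 4320 CPM. The 8 markers of hippocampal neurons summed to 963 to 2833 CPM in hippocampus and 420 to 699 CPM in cortex. In cerebellum they summed to 1310 and 1196 CPM, within the hippocampus range, so they set hippocampus apart from cortex only. These differences in cell makeup run along every contrast below, and their part in the values of the carriers was not tested. In such tissue samples fewer cells of a type and less RNA per cell cannot be told apart, and without an input library here neither can the amount of an RNA and its binding.

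The 135 members held 7956 of 712686 counts, or 1.12% of the table. By region their summed level was 11716 ± 914 CPM (SD, n = 2) in cerebellum, 11213 ± 2403 CPM (SD, n = 3) in cortex and 10086 ± 1184 CPM (SD, n = 4) in hippocampus. The ranges of the 3 regions overlapped. The counts were spread unevenly over the members. The 20 members with enough counts to be tested held 3268 counts (41.1% of the members' total), the other 115 held 4688, and the median member had a mean level of 54.7 CPM over the 3 regions, beside 56.5 CPM for all 7033 protein-coding rows that reached the same sum.

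Carriers that couple sodium to calcium or bicarbonate held the first 3 ranks in CPM. The highest member in CPM was Slc8a1 (NCX1, the sodium-calcium exchanger that extrudes calcium across the plasma membrane; chromosome 17, 81373105 to 81738377, minus strand, build GRCm38). It gave 723 and 502 CPM in cerebellum, 1042, 860.5 and 756 CPM in cortex, and 483, 375, 410.1 and 789.6 CPM in hippocampus. Every sample held Slc8a1 fragments. All cortex samples were above both cerebellum samples, and hippocampus overlapped both of the other regions. Slc24a2 is NCKX2, a potassium-dependent sodium-calcium exchanger of neurons (chromosome 4, 86983124 to 87230477, minus strand). It had 367 and 248 CPM in cerebellum, 456, 520 and 252 CPM in cortex, and 307, 196, 273 and 557 CPM in hippocampus. The forebrain median was 307 CPM. Cortex 3 was below cerebellum 1, and the highest sample was hippocampus 5. Slc8a2 (NCX2), which is mostly neuronal, had 241 and 268 CPM in cerebellum and 45.6 to 456 CPM in forebrain (median 199). None of these 3 exchangers differed between cerebellum and forebrain beyond its error: the log2 fold changes were -0.05 for Slc8a1, -0.02 for Slc24a2 and -0.16 for Slc8a2, with standard errors (SE) of 0.47, 0.49 and 0.53.

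Among the bicarbonate transporters, Slc4a4 (NBCe1, a sodium-bicarbonate cotransporter known from astrocytes; chromosome 5, 88886818 to 89239653, plus strand) was second of all members. It stood at 901 and 608 CPM in cerebellum, at 651, 341 and 0 CPM in cortex and at 407, 289.8, 137 and 464 CPM in hippocampus. Both cerebellum samples lay above all forebrain samples except cortex 1, which passed the lower of them. The sodium-driven exchangers of neurons Slc4a8 (NDCBE) and Slc4a10 (NCBE) and the anion exchanger Slc4a3 (AE3) were lower. Slc4a8 had 314 and 172 CPM in cerebellum and 0 to 456 CPM in forebrain (median 102), and Slc4a10 had 157 CPM in each cerebellum sample and 51.1 to 279 CPM in forebrain (median 168). Slc4a3 was at 189 and 198 CPM in cerebellum, at 618, 126 and 84.0 CPM in cortex and at 445, 85.2, 137 and 139 CPM in hippocampus. Cortex 1 and hippocampus 1+2, whose titles share a numeric code, held the 2 highest values of Slc4a3.

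**Figure D1:**
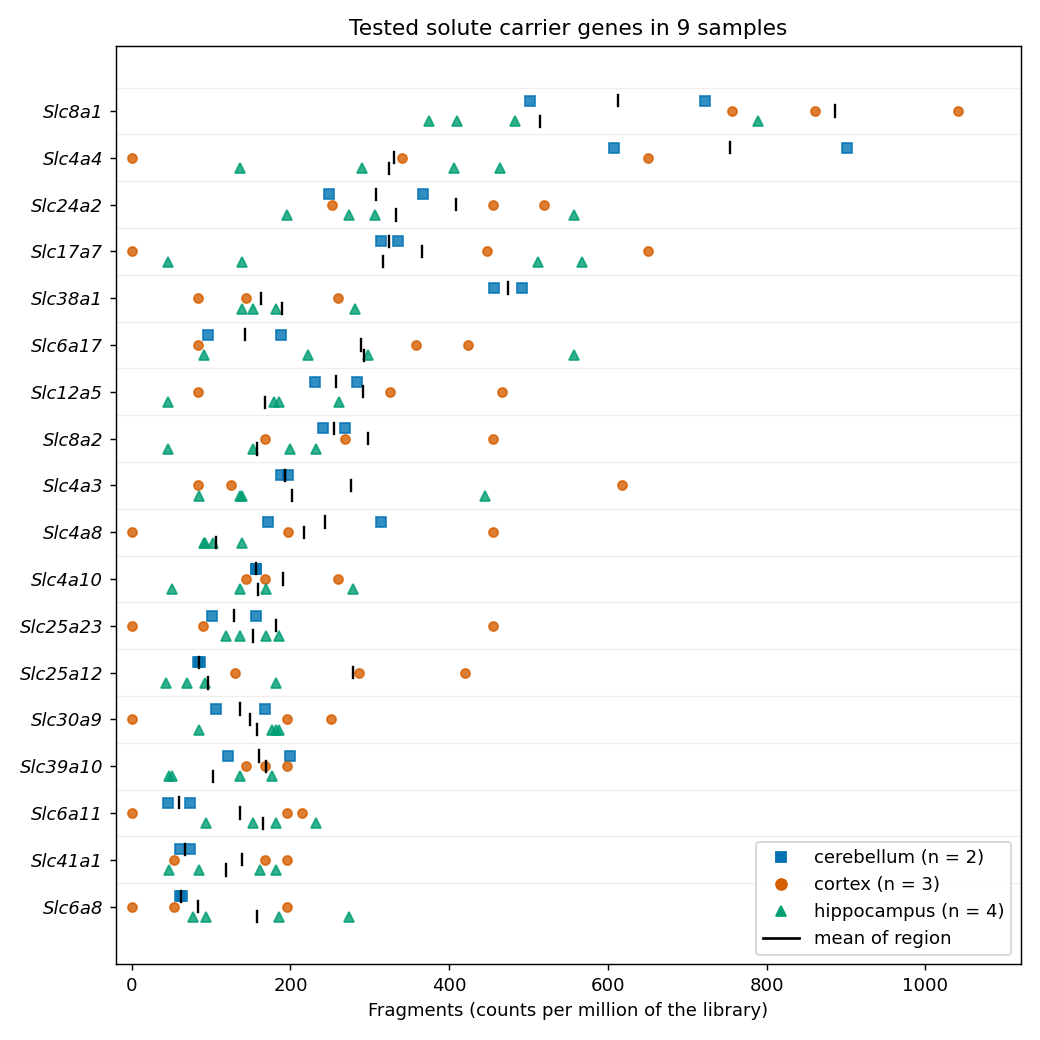
Fragments of 18 of the 20 tested solute carrier genes in CPM (x axis) for each gene (y axis). Each point is a sample, squares are cerebellum, circles cortex and triangles hippocampus, and black bars are region means. Slc8a1 is highest in all cortex samples, Slc38a1 has both cerebellum points above all forebrain points, and the other genes shown overlap between cerebellum and forebrain.

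Chloride in neurons is set by the balance of cotransporters of the SLC12 family. Slc12a5 (KCC2) carries chloride out of the cell, and Slc12a2 (NKCC1) carries it in. Slc12a5 (chromosome 2, 164960802 to 164999731, plus strand) had 231 and 284 CPM in cerebellum, 325, 466 and 84.0 CPM in cortex and 261, 179, 45.6 and 186 CPM in hippocampus. Both cerebellum samples of Slc12a5 lay within the forebrain range. Slc12a2 had too few counts for the test. It was at 168 and 142 CPM in cerebellum, at 0, 53.8 and 0 CPM in cortex and at 38.4, 85.2, 0 and 0 CPM in hippocampus. Both cerebellum samples of Slc12a2 stood above all 7 forebrain samples, 4 of which had no fragment. A count of 0 allowed 97.7 CPM in cortex 1, 252.1 in cortex 3, 137 in hippocampus 4 and 139 in hippocampus 5. The limit in cortex 3 is above both cerebellum values. Of 6 kinases of the WNK pathway, which regulate these cotransporters, 3 could be tested (Wnk1, Wnk2 and Wnk3) and none differed between cerebellum and forebrain, with log2 fold changes from -0.03 to 0.26.

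Transporters that load synaptic vesicles were dominated by Slc17a7 (VGLUT1, which fills vesicles with glutamate in cortical, hippocampal and cerebellar granule neurons; chromosome 7, 45163949 to 45176142, plus strand). It had 335 and 314 CPM in cerebellum, 651, 448 and 0 CPM in cortex and 568, 511, 45.6 and 139 CPM in hippocampus. The forebrain samples fell on both sides of cerebellum: 4 were higher and cortex 3, hippocampus 4 and hippocampus 5 were lower. Slc17a6 (VGLUT2), the glutamate loader typical of thalamus and brain stem, was at 52.4 and 50.7 CPM in cerebellum and 0 to 97.7 CPM in forebrain (median 46). Slc32a1 (VGAT), which loads GABA and glycine, was at 31.4 and 70.9 CPM in cerebellum and 0 to 89.6 CPM in forebrain (median 46.4). Of the 14 subunits listed for the vacuolar proton pump, which powers vesicle loading, 3 could be tested and none passed, with log2 fold changes from -0.56 to 0.47.

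Uptake carriers of the SLC1 and SLC6 families remove transmitters and other small molecules from the outside of the cell, and the 12 members of this group (without Slc1a2 and Slc1a3) were lower in cerebellum when summed. Their sum was 786 and 795 CPM in cerebellum. It was 1497, 1380.3 and 840.5 CPM in cortex and 1089.7, 1065, 1139 and 1393 CPM in hippocampus. Every forebrain sample was above both cerebellum samples, with cortex 3 closest. Its gap to cerebellum was smaller than the 84.0 CPM of a single cortex 3 fragment. With totals scaled by the TMM method the sums stayed apart, at 786 to 809.6 CPM in cerebellum and 863 to 1654 CPM in forebrain. Without its highest member, Slc6a17, which sits on vesicles rather than the plasma membrane, the group was at 597 to 699 CPM in cerebellum and 756 to 1074 CPM in forebrain. Both of these gaps were also smaller than 84.0 CPM. Not every member was lower: Slc6a6, Slc6a15, Slc6a9 and Slc6a5 had a higher mean in cerebellum than in forebrain. The rest of the group had a lower mean there. These sums are a description with no test, and the group was picked out of 12 after its values were seen.

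All 4 of its tested members had values below 0 in the cerebellum contrast, and none passed the test. Slc6a17 (NTT4, the vesicular carrier of neutral amino acids in glutamatergic neurons; chromosome 3, 107467543 to 107518018, minus strand) had 189 and 96.3 CPM in cerebellum, 423, 358 and 84.0 CPM in cortex and 223, 298, 91.1 and 557 CPM in hippocampus. Only cortex 3 (1 fragment) and hippocampus 4 (2 fragments) reached down to the cerebellum values. The GABA transporter of astrocytes Slc6a11 (GAT3; chromosome 6, 114131241 to 114249952, plus strand) had 73.3 and 45.6 CPM in cerebellum, 195, 215 and 0 CPM in cortex and 153, 93.8, 182 and 232 CPM in hippocampus. All forebrain samples but cortex 3 lay above cerebellum. The creatine transporter Slc6a8 had 62.9 and 60.8 CPM in cerebellum and 0 to 273 CPM in forebrain (median 93.8). The log2 fold changes were -1.24 (SE 0.54) for Slc6a17, -1.20 (SE 0.72) for Slc6a11 and -0.70 (SE 0.85) for Slc6a8, with edgeR adjusted p of 0.165, 0.418 and 0.794.

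The glycine transporters were hardly covered. Slc6a5 (GlyT2) was at 21 and 45.6 CPM in cerebellum and 0 to 68.2 CPM in forebrain, and Slc6a9 (GlyT1) at 52.4 and 35.5 CPM against 0 to 65.1 CPM. The neuronal glutamate transporter Slc1a1 (EAAC1) was at 21 and 30.4 CPM in cerebellum, at 65.1, 161 and 252.1 CPM in cortex and at 7.67, 17, 0 and 92.9 CPM in hippocampus. Cortex was above all other samples but hippocampus 5, on 2, 9 and 3 fragments. Slc1a6 (EAAT4), the glutamate transporter of Purkinje cells, missed the sum with 16 counts, of which 1 and 13 were in cerebellum.

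Slc38a1 (SNAT1, which carries glutamine and other neutral amino acids into neurons; chromosome 15, 96571418 to 96642913, minus strand) was the tested member with the highest fitted value in cerebellum. It gave 492 and 456 CPM in cerebellum, 260.4, 143 and 84.0 CPM in cortex and 153, 281, 182 and 139 CPM in hippocampus. Both cerebellum samples were above the highest forebrain sample, hippocampus 3, and Slc38a1 was the only tested member with no overlap on this scale. Its fitted log2 fold change was 0.93 (SE 0.50), with an edgeR adjusted p of 0.330. Slc38a1 belongs to the 19 other amino acid and peptide carriers, whose sum was 1865 and 1687 CPM in cerebellum and 1022 to 1602 CPM in forebrain. That gap closed with TMM-scaled totals (forebrain up to 2487 CPM) and without Slc38a1 (1231 to 1372 CPM against 882 to 1322 CPM).

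**Figure D2:**
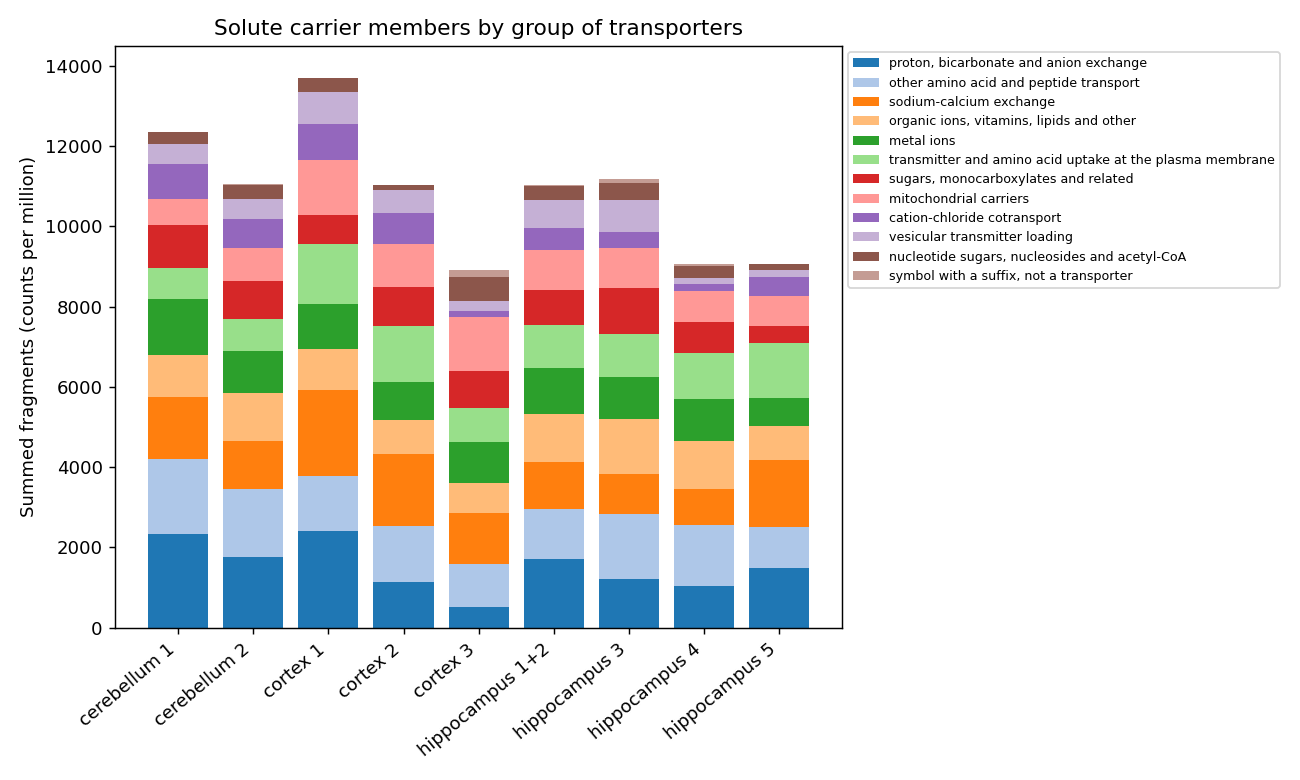
Summed fragments of the 135 members in CPM (y axis, from 0) in each of the 9 samples (x axis), stacked by group of transporters. The band of transmitter and amino acid uptake is thinnest in the 2 cerebellum samples (786 and 795 CPM), with cortex 3 close at 840.5 CPM. The whole column is tallest in cortex 1.

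The supply side was covered weakly. The glucose transporters Slc2a1 (GLUT1, of endothelium and glia) and Slc2a3 (GLUT3, of neurons) had 26 and 43 counts in all. Slc2a1 was at 52.4 and 40.5 CPM in cerebellum and 0 to 91.1 CPM in forebrain, and Slc2a3 at 10.5 and 76.0 CPM against 0 to 143 CPM. The highest of the 16 carriers of sugars and monocarboxylates was Slc16a7 (MCT2, the neuronal lactate and pyruvate carrier), with 136 and 117 CPM in cerebellum and 45.6 to 163 CPM in forebrain (median 85.2). In the mitochondria, Slc25a23 (a calcium-dependent ATP-magnesium/phosphate carrier) had 157 and 101 CPM in cerebellum and 0 to 456 CPM in forebrain (median 137), and the aspartate-glutamate carrier Slc25a12 had 83.8 and 86.1 CPM against 42.6 to 420.2 CPM (median 130.2). The 17 mitochondrial carriers summed to 650 and 831 CPM in cerebellum and 743 to 1367 CPM in forebrain, with overlap.

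Among 17 carriers of metal ions, 3 could be tested. Slc30a9, of the zinc transporter family, had 168 and 106 CPM in cerebellum and 0 to 251 CPM in forebrain (median 182). The zinc importer Slc39a10 had 199 and 122 CPM against 46.4 to 195 CPM (median 143). Slc41a1, a magnesium transporter, had 73.3 and 60.8 CPM in cerebellum, 195, 53.8 and 168 CPM in cortex and 84.4, 162, 182 and 46.4 CPM in hippocampus. Slc41a1 had the lowest fitted value of all tested members (log2 fold change -1.26, SE 0.78, edgeR adjusted p = 0.435), yet cortex 2 and hippocampus 5 were below both cerebellum samples. Of the 18 carriers of organic ions, vitamins, lipids and other substrates none could be tested, and the highest was Slc22a17, a receptor for the iron-binding protein lipocalin-2, with 94.3 and 157 CPM in cerebellum and 84.0 to 215 CPM in forebrain. Slc29a4, a carrier of monoamines and adenosine, led the 8 carriers of nucleosides and nucleotide sugars with 62.9 and 55.7 CPM in cerebellum and 0 to 115 CPM in forebrain.

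The comparison of cerebellum with forebrain was fitted over all 1720 genes with enough counts, with the numeric code of the sample titles as a block. Of these genes 132 passed an edgeR adjusted p of 0.05 (7.67%), 67 higher in cerebellum (3.9%) and 65 lower (3.78%). Of the 20 tested members, 0 passed, and 2 had an unadjusted p under 0.05 (Slc6a17 and Slc17a7), as had 310 of all genes. DESeq2 called none of the 20, with none at an unadjusted p under 0.05. Values were above 0 in 6 members and below in 14, with a median log2 fold change of -0.11 beside 0.002 over all genes tested. Among the largest were 0.93 for Slc38a1 and 0.80 (SE 0.45) for Slc4a4 on one side, and -1.26 for Slc41a1, -1.24 for Slc6a17 and -1.20 for Slc6a11 on the other. Slc17a7 was at -1.10 (SE 0.48, edgeR adjusted p = 0.173). Its size depended on the block: without it the value was -0.25 (edgeR adjusted p = 0.874). Mean levels of Slc17a7 were 325 CPM in cerebellum and 338 CPM in forebrain. Standard errors of the members were 0.45 to 0.85, and the smallest change among the genes that passed was 1.45 on the log2 scale.

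**Figure D3:**
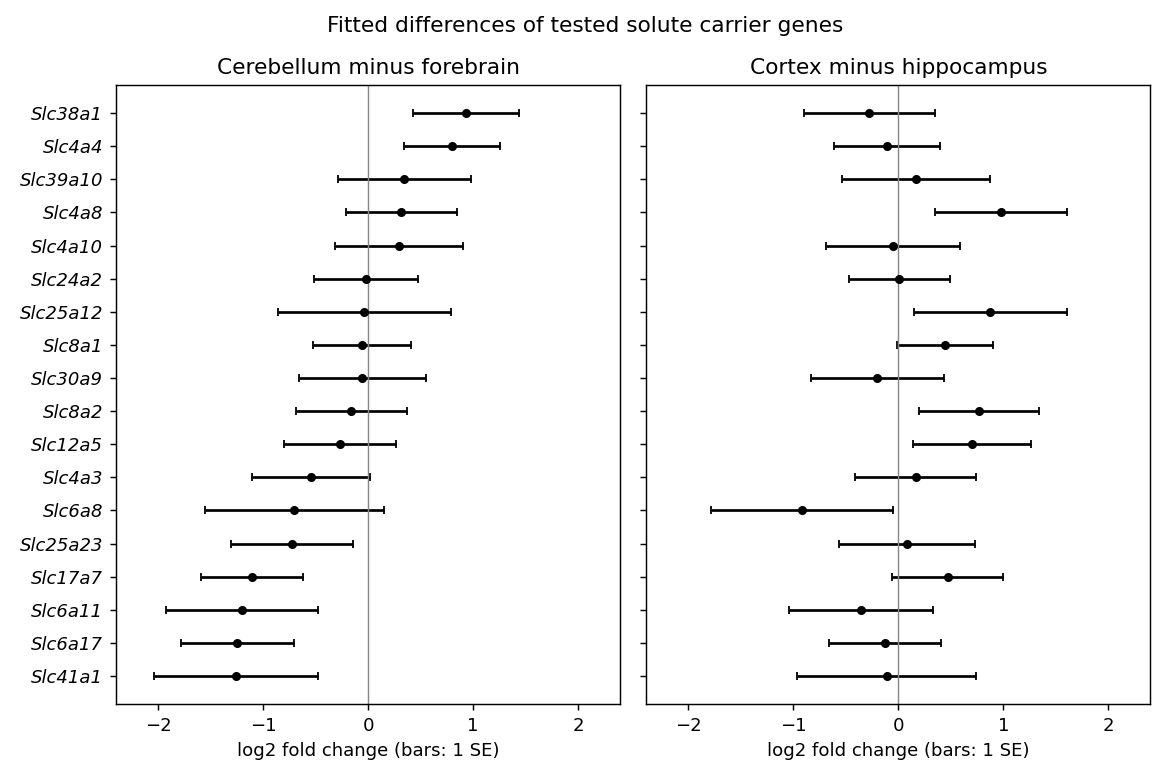
Fitted log2 fold changes (x axis) of 18 of the 20 tested members (y axis), cerebellum minus forebrain on the left and cortex minus hippocampus on the right, with bars of 1 SE. No member passed the adjusted threshold in either panel, and the left panel runs from -1.26 (Slc41a1) to 0.93 (Slc38a1).

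Calls appeared under some other choices of samples, all of them higher in cerebellum. Slc38a1 passed when the library in no group was taken as cortex and the block was dropped (log2 fold change 1.25, SE 0.42, edgeR adjusted p = 0.0494). There 1 of 13 tested members passed, beside 154 of 1215 genes. Without cortex 3, hippocampus 3 and hippocampus 4, which had the lowest share of known FMRP targets in an earlier analysis of these data, 3 of 27 tested members passed: Slc38a1 (1.48, SE 0.48, edgeR adjusted p = 0.024), Slc4a4 (1.02, SE 0.35, 0.0376) and Slc12a2 (2.55, SE 0.91, 0.0474). Over all genes 215 of 1989 passed in that subset, a similar share, so the 3 calls are not a result about the carriers. Slc12a2 reached the count filter of that subset only through cerebellum, where it is high, so its call there is a description only. Slc9a7, a sodium-proton exchanger of the Golgi, was too thinly covered for the test over all 9 samples. It passed without cortex 3 (2.24, SE 0.70, edgeR adjusted p = 0.0214), as 1 of 32 tested members, beside 176 of 2355 genes. Its levels were 262 and 112 CPM in cerebellum, 0, 35.9 and 0 CPM in cortex and 115, 59.7, 137 and 92.9 CPM in hippocampus. Hippocampus 1+2 and hippocampus 4 lay above the lower cerebellum sample. Title codes allowed 2 comparisons within a code, on TMM-scaled levels: cerebellum 1 with cortex 1 and hippocampus 1+2, and cerebellum 2 with hippocampus 3. Slc38a1 was higher in cerebellum by a log2 difference of 1.46 in the first and of 0.09 in the second. Slc4a4 gave 0.98 and 0.46, Slc17a7 -0.68 and -1.31, and Slc6a17 -0.56 and -2.24.

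Counting samples rather than fitting reached the members with few counts. In 7 of the 135 members (5.19%) both cerebellum samples were above all 7 forebrain samples, and the same was seen in 4.78% of the 7937 rows with a sum of at least 20. In 0 members were both below, beside 1.63% of rows. The share among the carriers is near the background and is not a result about the carriers. The 7 were Slc38a1, Slc12a2, Slc38a10 (an amino acid transporter of the SLC38 family), Slc30a4 (a zinc transporter of vesicles), Slc4a2 (the anion exchanger AE2), Slc29a1 (ENT1, which equilibrates adenosine) and Slc15a2 (PEPT2, which takes up peptides). Slc4a2 had 105 and 117 CPM in cerebellum and 0 to 92.1 CPM in forebrain, and Slc29a1 had 62.9 and 96.3 CPM against 0 to 32.6 CPM. Slc15a2 was just apart, at 52.4 and 50.7 CPM against at most 46.4 CPM. In 110 of the 135 members at least 1 forebrain sample had no fragment. With TMM-scaled totals 7 members were again apart, with Slc4a4 in and Slc38a10 out, beside 4.15% of rows on that scale.

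Cortex and hippocampus were compared in the same fit. Of the 1720 genes, 0 passed an edgeR adjusted p of 0.05 (0%), while 68 had an unadjusted p under 0.05. Of the 20 members 0 passed and 0 had an unadjusted p under 0.05, and DESeq2 called 1 of all genes and none of the members. The values furthest from 0 were 0.98 (SE 0.63) for Slc4a8, 0.88 (SE 0.73) for Slc25a12 and 0.77 (SE 0.57) for Slc8a2, all higher in cortex, and -0.92 (SE 0.87) for Slc6a8 and -0.35 (SE 0.68) for Slc6a11, both higher in hippocampus. The third in that direction was Slc38a1 at -0.27 (SE 0.62). KCC2 (Slc12a5) was at 0.70 (SE 0.56). The edgeR adjusted p was 0.999 for each of these members.

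Of the gene partners of the carriers, the sodium-potassium pump builds the sodium gradient that most plasma membrane carriers use. Of its 6 listed subunits 5 could be tested, and 1 was lower in cerebellum: Atp1b1, with a log2 fold change of -1.72 (SE 0.49). Astrocyte markers were present in every region, at 901 to 1135 CPM in cerebellum and 729 to 1320 CPM in forebrain for 10 genes, with none at 0 in any region. Of 4 tested astrocyte markers 1 (Glul) was lower in cerebellum and none higher, and their part in the values of the astrocyte carriers Slc4a4 and Slc6a11 was not tested. The choroid plexus, which is rich in carriers such as Slc12a2 and Slc4a2, gave 136 to 223 CPM in cerebellum, 53.8 to 84.0 CPM in cortex and 192 to 604 CPM in hippocampus for 6 markers, with Folr1 at 0 in cerebellum and Clic6, Otx2 and Kcnj13 at 0 in cortex. Much of the sum was Ttr, with 557 of the 604 CPM in hippocampus 5. The part of choroid plexus RNA in the values of Slc12a2 and Slc4a2 was not tested.

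Levels between genes were compared per kilobase of the longest coding transcript in GENCODE vM21, since long transcripts offer more sites. All 135 members were found there, all protein coding. Slc17a7 was then highest with 115 CPM per kb, followed by Slc4a4 with 59.2, Slc22a17 with 57.5 and Slc25a3 (the mitochondrial phosphate carrier) with 48.9 CPM per kb. Slc8a1, first in CPM, was rank 13 with 36.3 CPM per kb, because its annotated transcript is 18.5 kb long. The lowest was Slc6a5 with 3.56 CPM per kb. Across the 135 members the level in CPM and the transcript length had a Spearman rho of 0.447, and across the 7033 protein-coding rows with the same minimum sum the rho was 0.437. Genes are not independent replicates, and all values come from the same libraries.

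**Figure D4:**
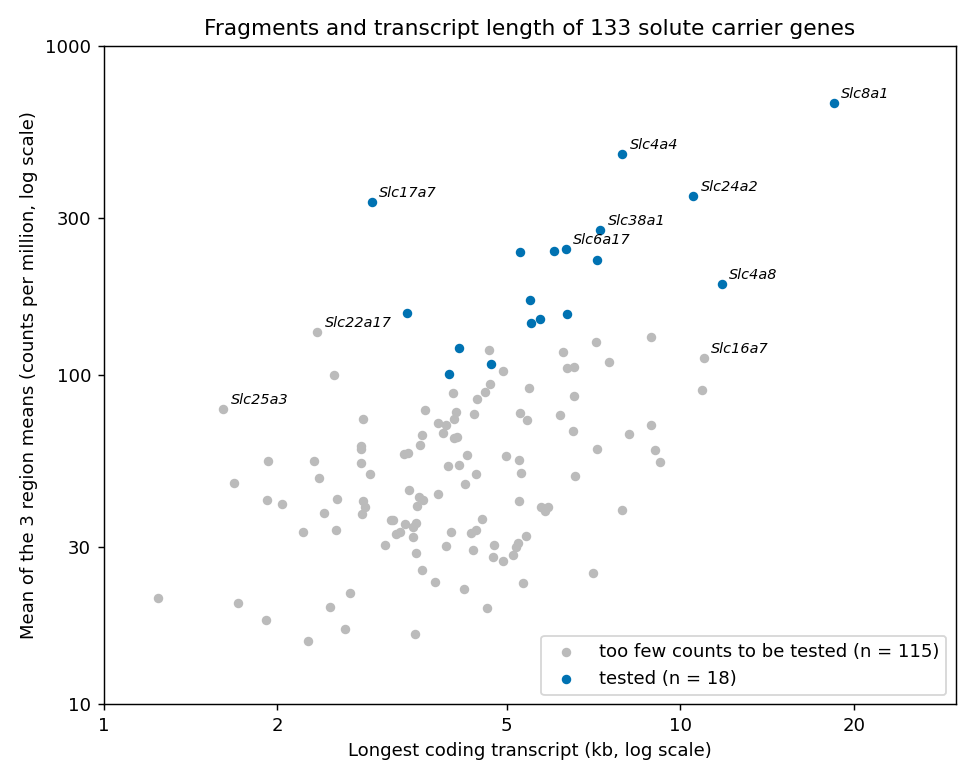
Mean of the 3 region means in CPM (y axis, log scale) against the length of the longest coding transcript in kb (x axis, log scale) for 133 of the 135 members, blue where tested and grey where counts were too few. Slc17a7 stands high for its length, and Slc8a1 is both the longest and the highest in CPM.

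The annotated transcripts of the members were like those of other genes at this level. Their median length was 4.22 kb beside 4.47 kb for all 7033 rows, and their median GC content was 50.3% beside 49.7%. A pair of 4-letter motif groups that have been linked to FMRP binding were counted on the sense strand of these transcripts. AGGA and TGGA together had a median of 12 per kb in the members and 13.3 per kb in all rows, and ACTG and ACTT together 9.34 and 9.004 per kb. These are counts of letters over whole transcripts, and the table gives no position of the fragments.

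Coverage of the weak members varied between samples along with another measure. The 66 members with fewer than 40 counts held 13.3% to 33.02% of the members' counts. The 3 highest samples were cortex 3, hippocampus 3 and hippocampus 4, at 33.02%, 30.5% and 30.1%, and the lowest were hippocampus 5, cortex 1 and cortex 2, at 13.3%, 14.96% and 15.8%. The share of all counts on symbols of predicted genes (names starting with Gm) ran the same way: it was 12.2% to 12.6% in the first 3 and 3.10% to 3.81% in the last 3. A set of 8 members known as carriers of kidney, gut or other epithelia (Slc5a8, Slc5a12, Slc13a2, Slc17a2, Slc17a3, Slc22a8, Slc26a4 and Slc26a9, chosen after their values were seen) reached the sum of 20 counts as well. Together they had 208 to 346 CPM in cerebellum, 71.7 to 420.2 CPM in cortex and 92.9 to 494 CPM in hippocampus, highest in hippocampus 3 and cortex 3. These 2 values rest on 58 fragments in hippocampus 3 but only 5 in cortex 3, so the place of cortex 3 is uncertain. Whether such fragments came from RNA bound in brain cells was not tested.

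**Figure D5:**
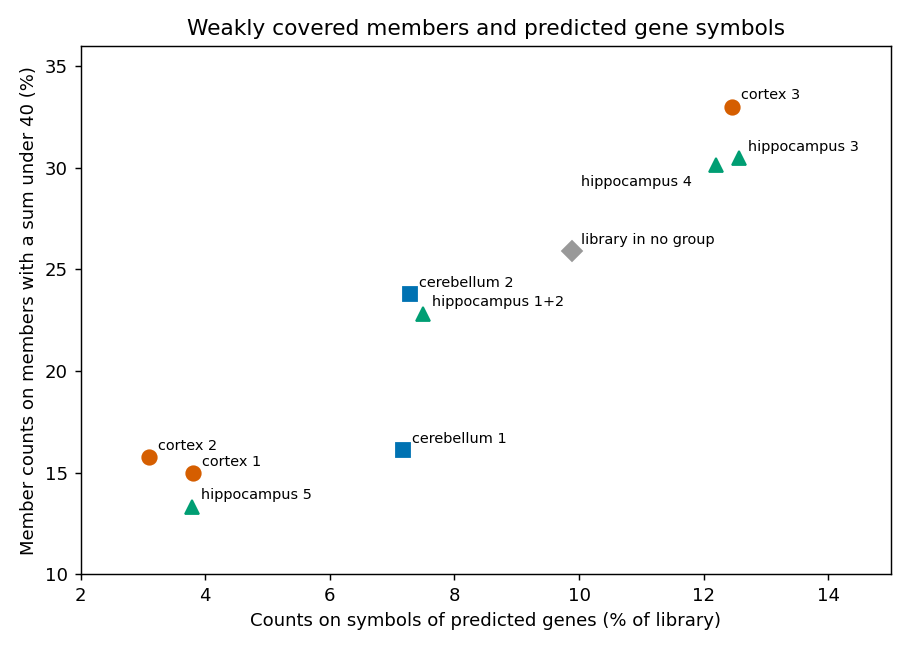
Percent of the members' counts on the 66 members with a sum under 40 (y axis) against the percent of a library's counts on symbols of predicted genes (x axis). Each point is a sample, squares are cerebellum, circles cortex, triangles hippocampus and the diamond the library in no group. Cortex 3, hippocampus 3 and hippocampus 4 are highest on both axes, and cortex 1, cortex 2 and hippocampus 5 lowest on both.

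At the edge of the selection, 12 members had exactly 20 counts (Slc25a5, Slc25a11, Slc25a34, Slc39a13, Slc44a4, Slc25a18, Slc17a2, Slc26a9, Slc25a46, Slc26a4, Slc29a2 and Slc30a1), and 8 rows had 19 and were left out (Slc16a11, Slc5a6, Slc33a1, Slc25a10, Slc16a12, Slc39a11, Slc25a25 and the dopamine transporter Slc6a3). Of the 135 members, 66 overlap another annotated gene, among them 7 of the 20 tested (including Slc8a1, Slc17a7, Slc25a23, Slc39a10, Slc6a11 and Slc25a12). The use of strand in counting is not given in the sources used here, so fragments of such genes and their neighbours cannot be told apart.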

How the data were processed

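The authors deposited whole-number fragment counts per gene symbol for 11 libraries, which were used as deposited. Reads were handled with Bowtie 0.12.7 and Picard on build mm10, per the submitters' processing notes. The counting program is not given in the sources used here, nor are the annotation, the use of strand and the removal of duplicates. All 11 sample columns were mapped to labels. Totals of the 9 samples ran from 11898 to 197382 counts, and PCR fragments without molecular identifiers are not independent molecules.

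CPM are counts divided by the library total and multiplied by 1000000. Regions were compared with edgeR 4.0.16 (R 4.3.3; quasi-likelihood, TMM factors, filterByExpr by region, Benjamini-Hochberg over 1720 rows, threshold 0.05), in one fit over 9 samples with region and title code as terms and 4 residual degrees of freedom. Standard errors were taken as the log2 fold change divided by the root of F and are approximate. DESeq2 1.42.0 was an alternative. The edgeR script was tested on simulated counts. Alternatives covered scaling, filters, the block, the summed pair, the library in no group and left-out samples. TMM-scaled sums and sums without the highest member were added after seeing the data.

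Same-numbered title codes were taken as a possible shared preparation. Samples of one code and different regions deviated together with a median r of 0.136 (8 pairs, -0.0801 to 0.498). For samples of different codes the median r was -0.0582 (18 pairs, -0.297 to 0.103). Deviations were taken from region means, so the 2 cerebellum samples mirror each other (r = -1). The 2 kinds of pairs are therefore not independent. Nothing in the labels says that samples of 1 region are separate animals. The p-values then measure only how far these samples spread, which may be technical. The members, the lists and the grouping of carriers by substrate were chosen with earlier results of these data known. Named members are the 10 highest in CPM, the highest of each group, the 3 largest changes in each direction and contrast, a list of textbook transporters of brain and the rows at the sum of 20 counts. Slc9a7, Slc4a2, Slc4a10, Slc15a2, Slc25a3, Slc29a1, Slc30a4, Slc38a10 and Slc39a10 fall outside this rule and were named after their values were seen. Lengths and coordinates are from GENCODE vM21 (GRCm38). Some genes are not reported here by name.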

Additional observations from a re-analysis of the deposited data

Results flagged for a closer look

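In hippocampus, 2 of 31 members looked at had 1 sample far from the other 3, where chance gives about 1 in 20. Slc30a9 was at 85.2 CPM in hippocampus 3 and at 177, 182 and 186 CPM in the others. Slc4a3 was at 445 CPM in hippocampus 1+2 and at 85.2, 137 and 139 CPM in the others.

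Within title codes, cerebellum 1 was set against cortex 1 and hippocampus 1+2, and cerebellum 2 against hippocampus 3, on TMM-scaled levels. The log2 differences had opposite signs in 8 of the 20 tested members. In 4 of these 8, cortex 1 and hippocampus 1+2 also lay on the same side of cerebellum 1. Slc4a3 had -1.30 in the first comparison and 0.60 in the second, Slc12a5 had -0.16 and 0.06, Slc24a2 had 0.14 and -0.27, and Slc4a10 had -0.245 and 1.01. These differences between codes were not tested. The share of opposite signs over all tested genes is not given here, so the 8 of 20 are not a result about the members.

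The library in no group, which entered only an alternative fit that took it as cortex, held 10051 CPM of the members' fragments. This sum lay within the range of the 9 samples, from 8909 CPM (cortex 3) to 13704 CPM (cortex 1).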

How the results depend on the processing

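Genes called in cerebellum against forebrain numbered 132, and 54 with library totals only (37 higher and 17 lower, where the median of all genes was 0.124), 87 with DESeq2, 1 with no filter on low counts, 85 with only the titles that start with s, 215 without cortex 3, hippocampus 3 and hippocampus 4, 81 without hippocampus 1+2 and 2 to 176 when 1 sample was left out. The lowest of these were without cerebellum 1 (2), cortex 1 (15) and cerebellum 2 (17). Without the replicate block it was 156 genes and 0 members. Members called went from 0 to 1 with the library in no group taken as cortex, 1 with the s titles, 3 without the 3 samples, and 0 to 1 when 1 sample was left out. Between cortex and hippocampus, 1 gene passed with DESeq2, with the stricter filter, with 10 separate libraries and with the library in no group as cortex, 3 without the 3 samples, and 0 to 1 when 1 sample was left out. No member passed there in any setting. The summed level of the members in hippocampus was 10086 CPM and 11711 CPM with TMM-scaled totals. A minimum sum of 10 would take 238 rows and one of 40 would take 69. The fitted value of a named member changed sign in 43 of 290 refits of cerebellum against forebrain and in 58 of 292 of cortex against hippocampus. What moved these counts was not tested. Depth limits the rest: 115 of 135 members were too thinly covered to be tested.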
